A study of Mus musculus with 12 samples.

Results

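The genes that copy DNA and mark S phase of the cell cycle were followed through a short block of Wnt signalling in organoids grown from the mouse stomach. The set held 52 named genes of the 55421 genes in the count table. Each was matched by its gene name, and each name had 1 row. The rule uses no measured value, but the list was drawn up with earlier results of these data known. The members fall into 8 roles: 10 genes of origin recognition and licensing, 6 of helicase activation, 9 polymerase and primase subunits, 10 of the sliding clamp, clamp loader, single-strand binding and lagging strand, 5 of nucleotide supply, 4 of chromatin copying and histone mRNA, 3 of fork protection and 5 E2F factors and E-type cyclins. All 52 had enough counts to be tested, and the smallest count in any library was 56, for Ccne2.

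The cultures were primary organoids, hollow epithelial structures that grow in Matrigel from isolated gastric glands, from wild-type mice. There were 3 independent lines, numbered 8025, 8026 and 8028, for each of 2 stomach regions, the acid-secreting corpus and the hormone-secreting antrum. Each line gave a vehicle library and an inhibited library, so that 12 libraries fell into 4 groups of 3. Polyadenylated RNA was sequenced.

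Vehicle organoids, labelled both as vehicle and as untreated, received DMSO in the normal medium with 50% L-WRN conditioned medium, a source of Wnt3a, R-spondin and Noggin. Inhibited organoids received XAV939, a tankyrase inhibitor that stabilises Axin and so lowers beta-catenin signalling, at a labelled concentration of 1 mM. At the same change the external Wnt and R-spondin were taken away and Noggin was added at 100 ng/mL. The switch was made on day 4 after passage of lines passaged several times before, and RNA was taken 24 hours later. The compound and the change of medium came together and cannot be told apart. Corpus cultures grew in 20% serum and antral cultures in 10%, so region and serum cannot be told apart either.

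DNA replication begins with licensing, when the origin recognition complex, Cdc6 and Cdt1 load the ring-shaped Mcm helicase onto DNA. In S phase Cdc45 and the Gins complex switch the helicase on, and polymerases alpha, delta and epsilon copy both strands with the help of the clamp Pcna, its loader Rfc and the single-strand binding protein Rpa. Most of these genes are targets of E2F transcription factors and are transcribed as cells leave G1. In the stomach, Wnt from the surrounding tissue keeps stem and progenitor cells of the glands dividing. In bulk RNA such as this, fewer cells in S phase and less of each RNA per cell cannot be told apart.

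Library totals ran from 18858022 to 31656696 counts. Levels are given in CPM, each library's counts brought to a common total with TMM scaling, and per-library values follow the line order 8025, 8026, 8028. Axin2 and Lgr5, direct Wnt target genes, served as a check of the treatment. In corpus, Axin2 stood at 70.7, 64.2 and 71.4 CPM in vehicle and 3.71, 5.39 and 18.7 CPM in inhibited organoids, and in antrum at 70.1, 79.0 and 77.4 against 11.5, 14.3 and 11.3 CPM. Lgr5 was between 40.0 and 51.1 CPM in the vehicle libraries and lay between 0.206 and 1.83 CPM in the inhibited ones. The inhibited corpus library of line 8028 kept more Axin2 than the other 2, and it stood apart for the replication genes as well. The counts of called members are therefore also given without both libraries of that line. Epithelial markers were high as a sum, with 9 genes together at 8875 to 10729 CPM in vehicle and 16705 to 18896 CPM in inhibited libraries. Epcam ran from 322 to 583 CPM. These markers changed with treatment and not all in 1 direction. In corpus 7 of the 9 were called higher and 1 lower (15.5% and 15.4% of all genes). In antrum 6 were called higher (16.3%) and 0 lower. In the mean of both regions 7 were called higher and 2 lower (22.2% and 23.6%). Of 9 fibroblast and muscle markers 8 stayed below 1 CPM, as did all 3 endothelial ones and 5 of 6 immune ones, with Adgre1 at 0. The immune exception, Cd68, ran from 9.56 to 50.6 CPM. Only 5 of these 18 genes had enough counts to be tested, and 4 were called in a region: Col1a1 at -1.74 ± 0.33 and Vim at -2.66 ± 0.67 on the log2 scale in antrum (adjusted p = 0.00224 and 0.0116), Ptprc at 1.58 ± 0.55 in antrum (adjusted p = 0.0493) and Pecam1 at 1.41 ± 0.49 in corpus (adjusted p = 0.0496). These 4 did not exceed 1.06 CPM in any library, and the part of these markers in the results was not tested. The antral hormone gene Gast did not exceed 0.167 CPM, and the antral factor Pdx1 lay between 19.8 and 41.9 CPM in corpus libraries and reached 47.9 CPM in an antral one. Nkx6-2, the third antral marker, peaked at 0.0889 CPM in corpus line 8025, lay between 4.67 and 19.1 CPM in the other corpus lines and between 16.4 and 26.4 CPM in antral libraries. The parietal and chief cell markers of the corpus, Atp4a, Atp4b and Chia1, were near 0 in both regions. Their sums were 0.832 to 1.56 CPM in corpus vehicle and 0.767 to 1.54 CPM in antral vehicle libraries. In inhibited libraries they were 0.226 to 0.514 CPM in corpus and 0.261 to 0.915 CPM in antrum. The labelled regions are thus not told apart by them. The 1 of these markers that was tested was called lower in corpus, at -1.71 on the log2 scale, and in the mean of both, at -1.19. It was not called in antrum, at -0.68. In 16 of the 52 members at least 100 exon bases are shared with another gene, so that their counts may hold reads of both: the strand setting of the counting is not given in the sources used here. These are Orc1, Orc6, Mcm7, Cdc45, Gins2, Pole2, Rfc2, Rfc4, Rfc5, Lig1, Fen1, Chaf1a, Slbp, Timeless, E2f8 and Ccne2. Gene positions are those of GENCODE release M21 on the build GRCm38.

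Most of the replication genes were lower after Wnt inhibition in both regions, and 1, E2f2, was higher. The fitted log2 change, inhibited against vehicle, was negative for 51 of the 52 members in corpus and for 51 of 52 in antrum, and E2f2 was the single exception in each. The median change of the members was -0.61 on the log2 scale in corpus and -0.55 in antrum, where the median of all 16152 tested genes was -0.04 in each region. A change was called where the adjusted p of edgeR's quasi-likelihood test was under 0.05. In corpus 6 members were called lower, where 15.4% of all tested genes were, and 1 was called higher, where 15.5% of all genes were. In antrum 4 were called lower, against 13.4% of all genes, and 1 higher, against 16.3%. Within each single region the share called was thus at or under that of all genes. Averaged over both regions, 29 of 52 members were called lower, 55.8% of them against 23.6% of all genes, and 1 was called higher, against 22.2%. At an unadjusted p under 0.05 stood 23 members in corpus, 18 in antrum and 37 in the mean of both. The share of all genes at that unadjusted threshold was not counted, so these counts cannot be read against it.

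The lines pair the libraries, since each line gave both a vehicle and an inhibited library. In corpus the 2 libraries of a line deviated together from their group means, with correlations of 0.345 to 0.544. The antral correlations, 0.157 to 0.259, lay within the range across regions, which reached 0.277. With each line as a block in the fit, 40 members were called lower in corpus (23.7% of all genes), 29 in antrum (20.2%) and 49 in the mean of both (29.9%), with E2f2 the 1 member called higher each time (19.8%, 20.6% and 25.3% of all genes). In the mean of both regions only Mcm10 and E2f8 were then not called in either direction. Without line 8028 of the corpus, whose median ratio was the closest to 0, 47 members were called lower in corpus (19% of all genes), 34 in antrum (17.8%) and 51 in the mean (25.8%). E2f2 was again the 1 member called higher in each (17.7%, 20.8% and 25.1%). The corpus median was then -0.93, and it ran from -1.09 without the inhibited library of line 8028 to -0.31 without that of line 8025. Corpus line 8028 was left out because it stood apart for these same genes. The counts and the median without it are therefore no test of the fall. When either of the other corpus lines was left out instead, fewer members were called lower in corpus than with all libraries. The direction of the same 51 genes was negative in each region with blocks.

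**Figure D1:**
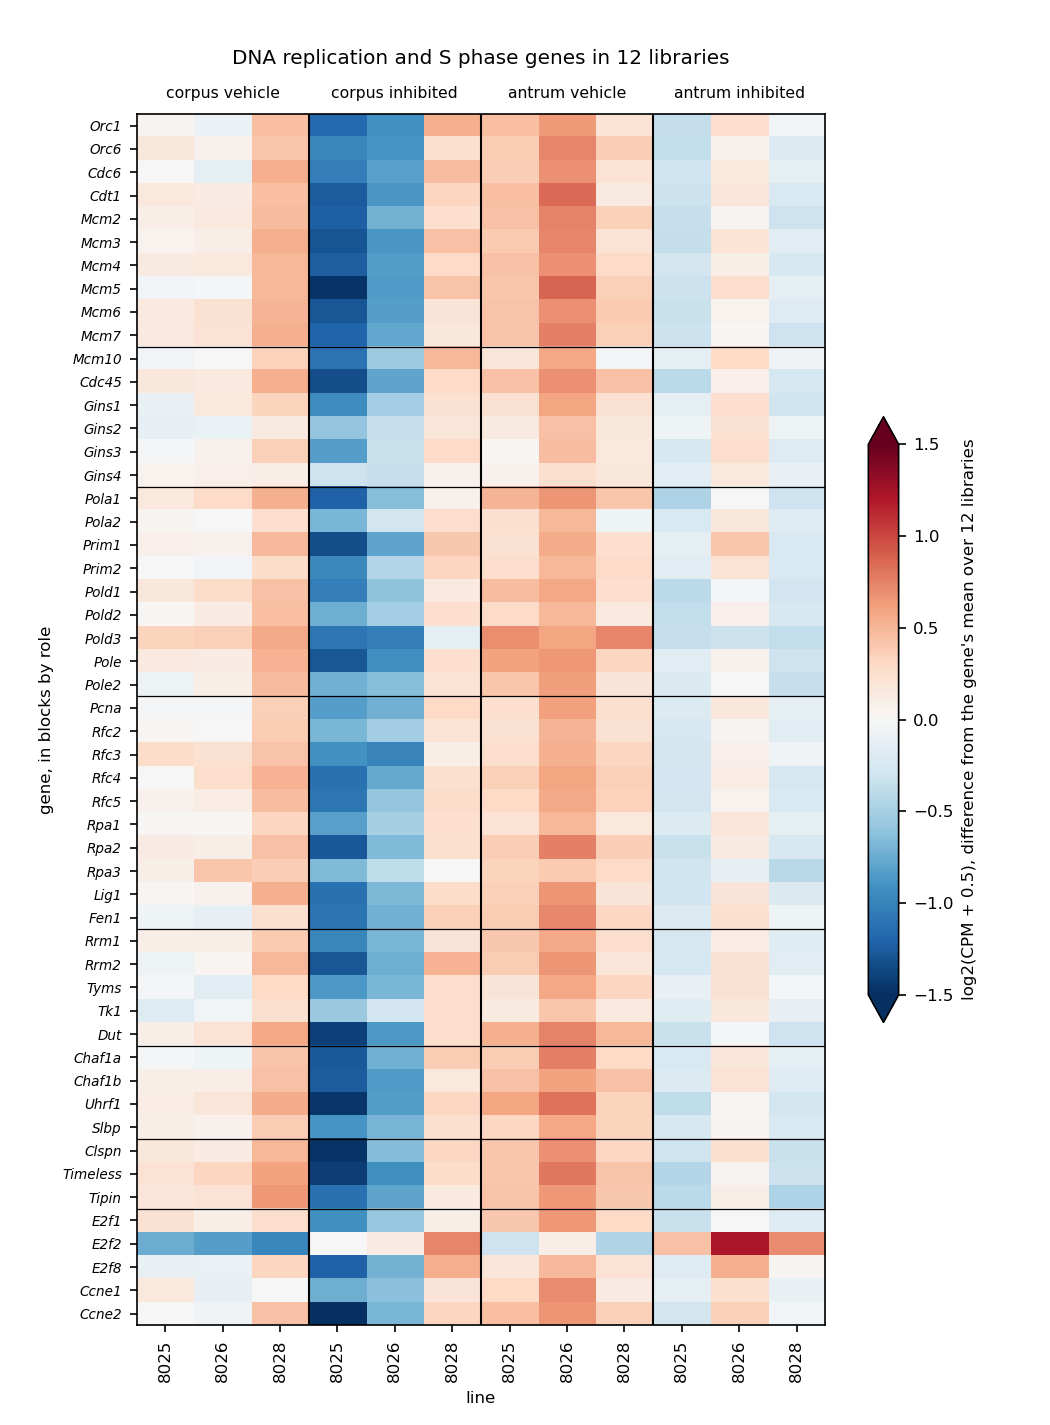
Level of the 52 genes in the 12 libraries, as the difference of log2(CPM + 0.5) from each gene's mean over all libraries, with genes in blocks by role and libraries by group and line. The inhibited corpus libraries of lines 8025 and 8026 are the lowest for most genes, the inhibited corpus library of line 8028 lies near the vehicle libraries, and E2f2 runs opposite to the other rows.

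**Figure D2:**
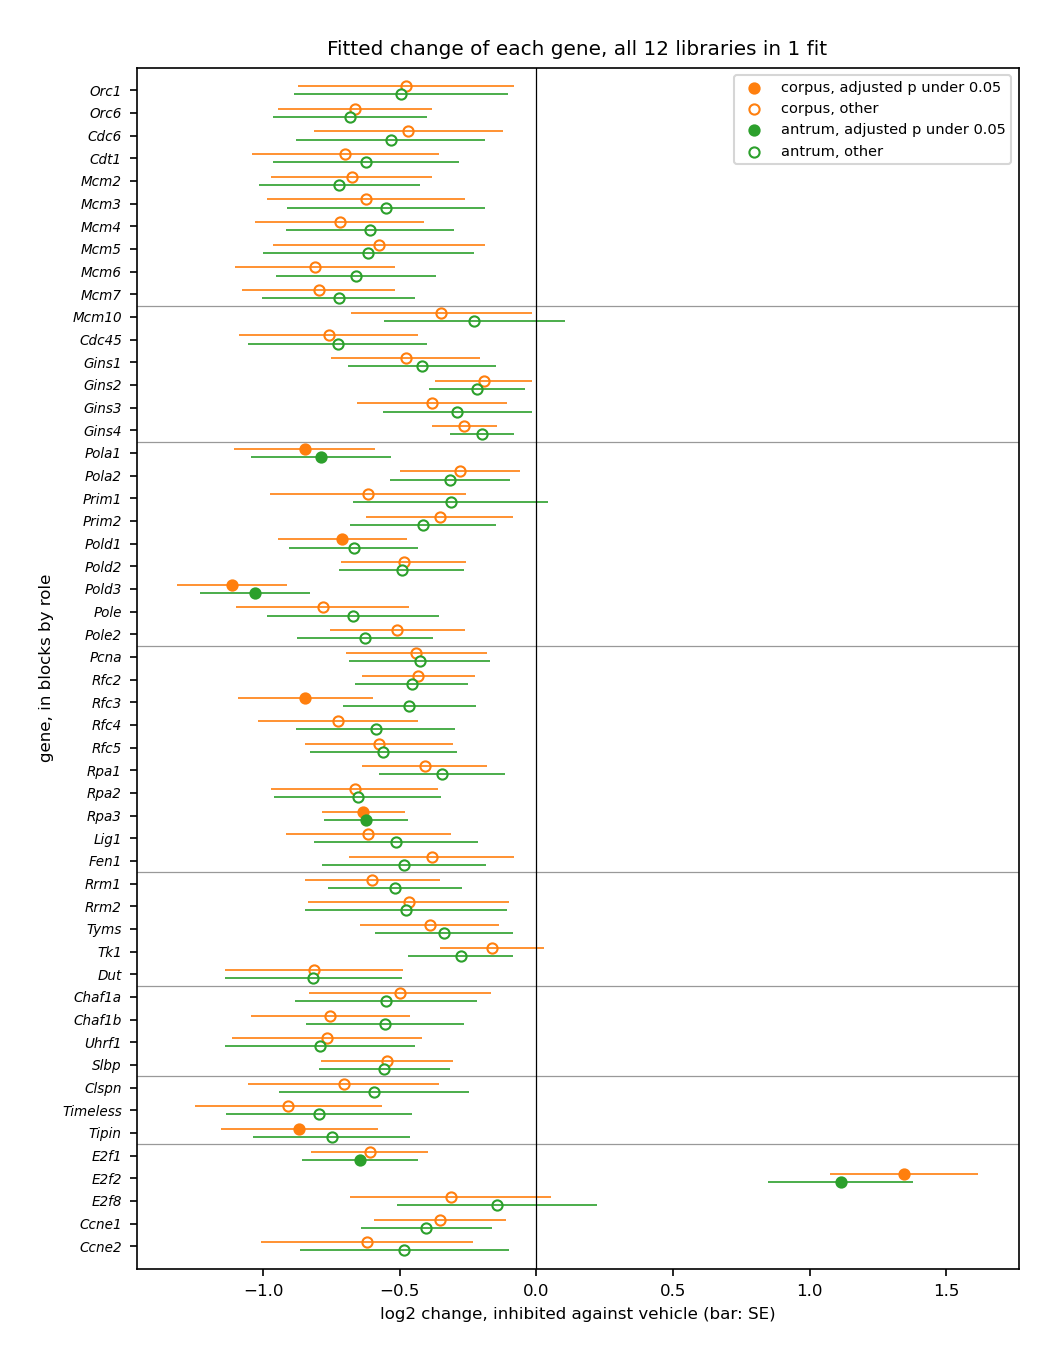
Fitted log2 change of each gene, inhibited against vehicle, in corpus and antrum, with its standard error (SE); filled points have an adjusted p under 0.05 in edgeR's quasi-likelihood test. All genes except E2f2 lie below 0 in both regions, Pold3 lies lowest, and 7 points are filled in corpus and 5 in antrum.

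The letters of an E2F site stand near the start of many of these genes. Of the 52 members 43 had a promoter in the RefSeq table of the build GRCm38.p6, as windows of 300 bases from 250 bases before the start to 50 after it. The 8-letter forms TTTCCCGC, TTTGGCGC, TTTCGCGC and TTTGCCGC, on either strand, were present in at least 1 window of 17 of the 43 (39.5%) and of 2.605% of all 27025 genes. In 9 of the 17 a match lay wholly before the start (20.9% of the 43, against 2.16% of all genes), and in the other 8 it lay after the start only. The 5 letters CCAAT were present in 26 of 43 (60.5%), against 41.1% of all genes, and the 6 letters TTTGAA in 7 of 43 (16.3%), against 20.2%. E2f2, the member that rose, is among the 17, with TTTGGCGC at base 40 counted from the start. Dut, Rpa3 and Timeless, which fell, held none of the 4 forms in their windows. The only windows of Dut (chr2:125247265-125247564) and Timeless (chr10:128237816-128238115) lie inside the genes as placed by GENCODE. The letters before the GENCODE starts of these 2 genes, at 125247190 and 128232065, were therefore not searched. A match describes the letters and not a bound site, and whether the letters bear on the changes was not tested. The stretches below show the member with the most E2F letters, Mcm6, 2 others that fell in the mean of both regions, and Pold3, which fell the most. Capitals mark the E2F letters, each stretch reads 5′ to 3′ towards the gene, and none holds an annotated exon. The Mcm6 stretch (chr1:128359706-128359825, minus strand) holds 3 matches that begin 110, 106 and 47 bases before the start, of which the first 2 overlap on opposite strands.
Mcm6: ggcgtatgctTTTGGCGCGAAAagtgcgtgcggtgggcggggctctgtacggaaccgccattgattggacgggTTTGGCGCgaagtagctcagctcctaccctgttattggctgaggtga
The Pola1 stretch (chrX:93632156-93632305, minus strand) holds 1 match, 138 bases before the start.
Pola1: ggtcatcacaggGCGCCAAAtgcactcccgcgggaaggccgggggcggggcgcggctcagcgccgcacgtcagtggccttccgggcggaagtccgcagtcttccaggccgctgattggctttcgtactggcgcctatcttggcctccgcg
The Uhrf1 stretch (chr17:56304113-56304312, plus strand) lies before the second of the gene's 2 RefSeq starts and holds 1 match, 185 bases before it. This stretch is inside the gene as placed by GENCODE (chr17:56303321-56323486), and the window of the first start holds none of the 4 forms.
Uhrf1: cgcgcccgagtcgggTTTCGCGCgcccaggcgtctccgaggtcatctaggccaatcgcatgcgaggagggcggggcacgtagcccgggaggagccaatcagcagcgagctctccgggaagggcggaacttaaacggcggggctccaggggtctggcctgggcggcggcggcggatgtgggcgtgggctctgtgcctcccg
The Pold3 stretch (chr7:100121566-100121752, minus strand) runs from 250 to 64 bases before the start and holds none of the 4 forms, while the rest of its window holds 1, TTTCCCGC, which begins at base 18 counted from the start.
Pold3: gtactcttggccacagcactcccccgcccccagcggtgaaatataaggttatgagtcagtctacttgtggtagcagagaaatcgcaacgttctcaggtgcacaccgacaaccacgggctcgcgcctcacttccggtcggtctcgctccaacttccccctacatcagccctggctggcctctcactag

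Counts of lower calls by role, here and below, are to be read against the shares of all genes. These were 15.4% in corpus, 13.4% in antrum and 23.6% in the mean of both, or 23.7%, 20.2% and 29.9% with the lines as blocks. Among the licensing genes all 10 had negative changes in both regions, with medians of -0.67 in corpus and -0.62 in antrum. No licensing gene was called in a single region, 6 of 10 were called lower in the mean of both, and with the lines as blocks 8 were called lower in corpus and 5 in antrum. Mcm7 (chromosome position chr5:138164583-138172422), a subunit of the helicase ring and the member with the highest level in CPM of its role, stood at 157, 164 and 206 CPM in corpus vehicle and 61.4, 82.3 and 159 CPM in inhibited organoids. In antrum it stood at 191, 241 and 181 CPM against 113, 144 and 114 CPM. The antral groups did not overlap, and in corpus the inhibited library of line 8028 lay above the lowest vehicle library. The fitted log2 change was -0.80 ± 0.28 (SE) in corpus with an adjusted p of 0.0513, -0.72 ± 0.28 in antrum with an adjusted p of 0.0741, and -0.76 ± 0.20 in the mean of both with an adjusted p of 0.00878 (edgeR's quasi-likelihood test). With the lines as blocks its adjusted p was 0.00461 in corpus and 0.0118 in antrum. The Mcm7 exons share 321 bases with those of Ap4m1 on the other strand.

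Mcm6 (chr1:128331590-128359664), whose upstream letters are shown above, belongs to the same ring. Its corpus levels were 147, 156 and 189 CPM in vehicle and 54.1, 74.4 and 151 CPM in inhibited organoids, and its antral levels 179, 214 and 174 CPM and 105, 138 and 116 CPM. Line 8028 again closed the gap in corpus, with its inhibited library above the vehicle library of line 8025, and the antral groups did not overlap. The change in the mean of both regions was -0.74 ± 0.21 with an adjusted p of 0.0128 (lost under 3 of 29 other settings). The blocked fit called it in each region, with adjusted p = 0.00912 in corpus and 0.0322 in antrum. Orc6 (chr8:85299632-85308278), a subunit of the origin recognition complex, stood at 25.7, 23.9 and 30.6 CPM in corpus vehicle, 11.3, 12.2 and 27.0 CPM in corpus inhibited, 29.8, 38.3 and 29.6 CPM in antral vehicle and 17.5, 23.8 and 19.7 CPM in antral inhibited organoids. It too separated fully in antrum and overlapped in corpus through line 8028. Its change in the mean was -0.67 ± 0.20 with an adjusted p of 0.0166 (lost under 4 of 29 other settings), and the blocked adjusted p was 0.00944 in corpus and 0.0142 in antrum. Of the other licensing genes, Cdc6 had the smallest corpus change at -0.47 ± 0.35 and Orc1 the smallest antral change at -0.50 ± 0.39.

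The helicase activation genes had median changes of -0.37 in corpus and -0.26 in antrum. None of the 6 was called in a single region, and Cdc45 and Gins4 were called lower in the mean of both. The blocked fit called 4 lower in corpus and 2 in antrum. Cdc45 (chr16:18780447-18811987), which joins the Mcm ring to form the active helicase, stood at 20.9, 20.5 and 27.2 CPM in corpus vehicle and 7.09, 10.4 and 22.8 CPM in inhibited organoids, and at 25.4, 30.1 and 25.2 against 13.9, 19.5 and 15.4 CPM in antrum. The antral groups were apart, and the corpus groups overlapped. Its change in the mean was -0.74 ± 0.23 with an adjusted p of 0.0212 (lost under 10 of 29 other settings), and the blocked adjusted p was 0.0133 in corpus and 0.0266 in antrum. The 4 Gins subunits, which complete the same complex, had smaller fitted changes than Cdc45. Gins1 (chr2:150905400-150931280) stood at 11.3, 13.7 and 15.5 CPM in corpus vehicle and 6.14, 8.43 and 14.4 CPM in corpus inhibited organoids. In antrum it stood at 14.4, 18.7 and 14.4 CPM in vehicle and 11.1, 14.7 and 9.85 CPM in inhibited organoids. Both pairs of groups overlapped, and its change in the mean, -0.45 ± 0.19, had an adjusted p of 0.0764 without blocks and 0.002 with them.

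Gins4 (chr8:23226616-23237659) varied least, with 28.7, 29.0 and 29.5 CPM in corpus vehicle, 22.2, 21.6 and 28.8 CPM in corpus inhibited, 28.8, 32.6 and 31.1 CPM in antral vehicle and 24.4, 30.7 and 25.5 CPM in antral inhibited organoids. The groups overlapped in both regions. The small change in the mean, -0.23 ± 0.08, was called, with an adjusted p of 0.0398 (lost under 15 of 29 other settings). Gins2 (chr8:120578633-120589304) was higher in CPM, at 40.6, 41.4 and 48.5 in corpus vehicle, 29.1, 34.7 and 50.3 in corpus inhibited, 48.5, 60.1 and 49.7 in antral vehicle and 42.4, 51.9 and 42.1 in antral inhibited organoids. Its change in the mean was -0.21 ± 0.13 with an adjusted p of 0.202, and 0.0135 with the lines as blocks. Most of the Gins2 exon sequence, 2758 bases, overlaps Gse1 on the other strand, so its counts may hold reads of Gse1.

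The polymerase and primase subunits held the largest fall of the set. Of 9 members, 3 were called lower in corpus, 2 in antrum and 6 in the mean of both, against 15.4%, 13.4% and 23.6% of all genes. With the lines as blocks 7, 6 and 9 were, against 23.7%, 20.2% and 29.9%. Pold3 (ENSMUSG00000030726, chr7:100082111-100121565), an accessory subunit of polymerase delta that also acts in repair of broken forks, stood at 66.0, 67.2 and 78.1 CPM in corpus vehicle and 24.5, 25.5 and 47.4 CPM in inhibited organoids. In antrum its vehicle libraries held 85.6, 79.5 and 87.6 CPM and the inhibited ones 41.3, 41.9 and 40.4 CPM. The groups did not overlap in either region, and the 3 inhibited antral libraries lay close together. The group means were 70.4 ± 6.63 (SD, n = 3) against 32.5 ± 12.9 CPM in corpus and 84.3 ± 4.19 against 41.2 ± 0.754 CPM in antrum. The log2 change was -1.12 ± 0.20 in corpus (adjusted p = 0.00164) and -1.03 ± 0.20 in antrum (adjusted p = 0.00261). The antral call was lost under 1 of 30 other settings, the one without the vehicle libraries of antral lines 8025 and 8028 (adjusted p = 0.0576), and the corpus call under none. Pold3 had the lowest within-line ratio of all 52 genes in 5 of the 6 lines and ranked 11 in corpus line 8025.

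The catalytic subunit of the same enzyme, Pold1 (chr7:44532746-44548849), had the smaller fitted changes. Its libraries held 58.8, 63.5 and 71.1 CPM in corpus vehicle and 25.5, 34.4 and 58.0 CPM in inhibited organoids. The antral values were 72.6, 78.5 and 62.4 against 39.8, 51.6 and 42.8 CPM. Neither pair of groups overlapped, although the corpus gap was narrow. The change was -0.71 ± 0.24 in corpus (adjusted p = 0.0405) and -0.67 ± 0.24 in antrum (adjusted p = 0.0523, and 0.0128 with blocks). The corpus call was lost under 17 of 30 other settings, with adjusted p up to 0.215. The ratio of Pold3 to Pold1 counts was lower after inhibition within each line, going from 1.12, 1.06 and 1.10 to 0.960, 0.740 and 0.816 in corpus, and from 1.18, 1.01 and 1.40 to 1.04, 0.812 and 0.944 in antrum. Pola1 (chrX:93304767-93632155), the catalytic subunit of the polymerase that starts each new strand, stood at 32.5, 35.4 and 42.4 CPM in corpus vehicle and 12.2, 18.4 and 30.4 CPM in inhibited organoids, and at 41.4, 46.1 and 38.9 against 20.9, 28.9 and 23.3 CPM in antrum. All vehicle libraries lay above all inhibited ones of their region. Its change was -0.85 ± 0.26 in corpus (adjusted p = 0.0275) and -0.79 ± 0.26 in antrum (adjusted p = 0.0379). The corpus call was lost under 11 of 30 other settings and the antral call under 14, with adjusted p up to 0.154 and 0.204. Pola2, the accessory subunit of that polymerase, had the smallest corpus change of the role at -0.28 ± 0.22, and the primase subunit Prim1 the smallest in the unblocked antral fit at -0.31 ± 0.36.

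The clamp, clamp loader and single-strand binding genes were negative in all 10 cases in each region, with medians of -0.60 in corpus and -0.50 in antrum. Of the 10, Rfc3 and Rpa3 were called lower in corpus, Rpa3 in antrum and 7 genes in the mean of both, and the blocked fit called 9, 7 and 10. Rpa3 (ENSMUSG00000012483, chr6:8255936-8259173), the small subunit of the protein that coats single-stranded DNA, stood at 21.6, 27.2 and 26.3 CPM in corpus vehicle and 12.7, 15.5 and 20.2 CPM in inhibited organoids. The antral libraries held 25.7, 26.7 and 24.9 against 16.5, 18.6 and 15.1 CPM. Its groups did not overlap in either region. The change was -0.63 ± 0.15 in corpus (adjusted p = 0.00864) and -0.62 ± 0.15 in antrum (adjusted p = 0.00993), close to the values of many uncalled members but with an SE of 0.15, where the median SE over the members was 0.28. The corpus call was lost without corpus line 8026 (adjusted p = 0.104), and the antral call without antral line 8025, without antral line 8028 and without the vehicle libraries of both (adjusted p up to 0.081). Rpa2 (chr4:132768332-132778752), the middle subunit, showed a wider spread, with 25.8, 25.1 and 32.3 CPM in corpus vehicle and 9.48, 14.8 and 28.0 CPM in inhibited organoids, and 30.7, 40.3 and 30.7 against 18.6, 26.1 and 20.0 CPM in antrum. Its antral groups were apart and its corpus groups overlapped. The change in the mean was -0.66 ± 0.22 (adjusted p = 0.0271, lost under 11 of 29 other settings), and with blocks the adjusted p was 0.0178 in corpus and 0.0318 in antrum.

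Rfc3 (chr5:151642756-151651242), a subunit of the clamp loader, stood at 22.6, 22.0 and 25.3 CPM in corpus vehicle and 9.68, 9.08 and 20.0 CPM in inhibited organoids. In antrum the values were 22.4, 27.1 and 23.5 and 15.3, 19.7 and 17.9 CPM. Neither region's groups overlapped, and the fitted antral change was the smaller. The change was -0.85 ± 0.25 in corpus (adjusted p = 0.0228) and -0.46 ± 0.24 in antrum (adjusted p = 0.176), and the corpus call was lost under 8 of 30 other settings, with adjusted p up to 0.133. The difference between the responses, antrum minus corpus, was the highest of the 52 genes at 0.38 ± 0.35 and was not called (adjusted p = 1). Rfc4 (chr16:23113943-23127737), of the same loader, stood at 21.1, 25.4 and 30.3 CPM in corpus vehicle, 9.40, 12.1 and 24.8 CPM in corpus inhibited, 27.0, 31.9 and 27.0 CPM in antral vehicle and 17.0, 22.7 and 17.4 CPM in antral inhibited organoids. Its antral groups were apart. It was called lower in the mean at -0.66 ± 0.21 (adjusted p = 0.0217, lost under 11 of 29 other settings), and with blocks in corpus (adjusted p = 0.00316) and antrum (adjusted p = 0.0142). Pcna (chr2:132249162-132253314), the sliding clamp and the member with the highest level per length, stood at 149, 149 and 194 CPM in corpus vehicle and 85.3, 91.8 and 186 CPM in inhibited organoids. In antrum it held 179.7, 231 and 179 against 131, 171 and 137 CPM. The antral groups were narrowly apart, and in corpus the inhibited library of line 8028 exceeded 2 vehicle libraries. Its change in the mean, -0.43 ± 0.18, was not called (adjusted p = 0.0728) unless the lines were blocks (adjusted p = 0.00337). The genome holds pseudogenes of Pcna, and how reads that fit both were shared is not given in the sources used here.

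The fitted changes of the 5 enzymes of nucleotide supply ran from Tk1 at -0.22 ± 0.14 to Dut at -0.81 ± 0.23 in the mean of both regions. None was called in a single region, Rrm1 and Dut were called lower in the mean, and the blocked fit called 3 in corpus, 3 in antrum and all 5 in the mean. Dut (chr2:125247190-125258608), which keeps dUTP out of DNA, stood at 47.1, 51.5 and 66.0 CPM in corpus vehicle and 16.4, 24.1 and 53.0 CPM in inhibited organoids, and at 63.8, 74.1 and 62.6 against 35.0, 43.6 and 35.3 CPM in antrum. The antral groups were far apart, and line 8028 made the corpus groups overlap. Its adjusted p was 0.0133 (lost under 3 of 29 other settings) in the mean, and with blocks 0.00944 in corpus and 0.0163 in antrum. Rrm1 (chr7:102441695-102469771), the large subunit of ribonucleotide reductase, stood at 152, 151 and 186 CPM in corpus vehicle and 71.5, 87.9 and 163 CPM in inhibited organoids. In antrum it stood at 187, 210.0 and 170.1 against 118, 153 and 125 CPM, with no overlap. The change in the mean was -0.56 ± 0.17 (adjusted p = 0.0209, lost under 9 of 29 other settings), and the blocked adjusted p was 0.0116 in corpus and 0.0322 in antrum. Tyms (chr5:30058202-30073617), which makes thymidylate, stood at 45.4, 41.2 and 56.8 CPM in corpus vehicle, 25.3, 28.4 and 55.4 CPM in corpus inhibited, 52.8, 69.2 and 57.6 CPM in antral vehicle and 42.7, 54.1 and 45.4 CPM in antral inhibited organoids. Its groups overlapped in both regions, and its change in the mean, -0.36 ± 0.18, had an adjusted p of 0.118, and 0.00579 with blocks.

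Genes that copy chromatin and handle histone mRNA were negative in all 4 cases, with medians of -0.65 in corpus and -0.56 in antrum. None was called in a single region and 3 were called lower in the mean of both, and with blocks 4 were called in corpus and 3 in antrum. Uhrf1 (chr17:56303321-56323486), which brings the maintenance DNA methyltransferase to newly copied DNA, stood at 101, 106 and 137 CPM in corpus vehicle and 33.6, 52.1 and 116 CPM in inhibited organoids. In antrum it stood at 141, 165 and 117 against 71.5, 95.5 and 77.1 CPM. The antral groups did not overlap, and the inhibited corpus libraries ranged more than any vehicle group. Its change in the mean was -0.78 ± 0.25 (adjusted p = 0.0227, lost under 11 of 29 other settings), and the blocked adjusted p was 0.0273 in corpus and 0.0454 in antrum. Chaf1b (chr16:93883901-93906115), a subunit of the chromatin assembly factor that places histones behind the fork, stood at 22.8, 23.0 and 29.2 CPM in corpus vehicle and 8.74, 11.6 and 23.9 CPM in inhibited organoids, and at 29.1, 32.8 and 29.1 against 18.5, 24.8 and 18.6 CPM in antrum. Slbp (chr5:33634952-33652574), which binds the stem-loop of replication-dependent histone mRNAs, stood at 44.8, 44.4 and 55.4 CPM in corpus vehicle, 22.7, 25.9 and 50.1 CPM in corpus inhibited, 52.6, 63.2 and 53.6 CPM in antral vehicle and 35.7, 43.4 and 36.1 CPM in antral inhibited organoids. Both separated in antrum and overlapped in corpus. In the mean of both regions Chaf1b changed by -0.65 ± 0.20 (adjusted p = 0.0218, lost under 10 of 29 other settings) and Slbp by -0.55 ± 0.17 (adjusted p = 0.0206, lost under 8 of 29 other settings). With blocks Chaf1b had adjusted p = 0.00758 in corpus and 0.0383 in antrum, and Slbp 0.00776 and 0.0126.

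The 3 genes of fork protection, which hold the helicase and polymerases together and pass on the checkpoint signal, had the largest median change of any role, -0.87 in corpus and -0.75 in antrum. Tipin was called lower in corpus, and Timeless and Tipin in the mean of both. The blocked fit called 3 in corpus and 2 in antrum. Timeless (chr10:128232065-128252941) stood at 31.9, 34.5 and 42.0 CPM in corpus vehicle and 10.0, 14.3 and 33.3 CPM in inhibited organoids, and at 36.9, 47.7 and 37.2 against 20.0, 28.3 and 21.9 CPM in antrum. Its partner Tipin (chr9:64281581-64305424) stood at 25.9, 26.5 and 36.0 CPM in corpus vehicle and 10.2, 12.9 and 25.2 CPM in inhibited organoids, and at 30.8, 35.9 and 30.2 against 17.0, 24.3 and 16.4 CPM in antrum. Tipin separated in both regions, in corpus by less than 1 CPM, whereas Timeless overlapped in corpus. Timeless changed by -0.85 ± 0.24 in the mean (adjusted p = 0.0137, lost under 3 of 29 other settings), with blocked adjusted p of 0.00949 in corpus and 0.0267 in antrum. Tipin changed by -0.87 ± 0.29 in corpus (adjusted p = 0.0404) and had -0.75 ± 0.29 in antrum (adjusted p = 0.0704, and 0.00268 with blocks). The corpus call of Tipin was lost under 18 of 30 other settings. Clspn (chr4:126556935-126593903), the mediator that lets Atr activate Chk1, stood at 32.4, 31.3 and 40.9 CPM in corpus vehicle, 10.1, 18.1 and 35.9 CPM in corpus inhibited, 38.6, 46.7 and 35.6 CPM in antral vehicle and 23.3, 34.2 and 22.7 CPM in antral inhibited organoids. The antral groups were narrowly apart. It had the lowest within-line ratio of all members in corpus line 8025, at -1.64 on the log2 scale, and in the mean its change of -0.65 ± 0.25 just missed the threshold (adjusted p = 0.05016, and 0.0121 with blocks).

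The regulators of S phase entry moved in opposite directions. E2f2 (ENSMUSG00000018983, chr4:136172394-136196057), an activating E2F factor, rose in both regions and in every line. It stood at 2.37, 2.20 and 1.93 CPM in corpus vehicle and 4.33, 4.75 and 7.45 CPM in inhibited organoids. In antrum it stood at 3.36, 4.65 and 3.01 against 6.02, 10.6 and 7.35 CPM. All inhibited libraries lay above all vehicle libraries of their region, and E2f2 had the highest within-line ratio of the 52 genes in each of the 6 lines. The group means were 2.17 ± 0.222 (SD, n = 3) against 5.51 ± 1.69 CPM in corpus and 3.67 ± 0.863 against 8.0 ± 2.37 CPM in antrum. The log2 change was 1.35 ± 0.27 in corpus (adjusted p = 0.00315) and 1.11 ± 0.27 in antrum (adjusted p = 0.00848). The antral call was lost when antral line 8028 or the vehicle libraries of antral lines 8025 and 8028 were left out, with adjusted p up to 0.193, and the corpus call held under all 30 settings tried.

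E2f1 (chr2:154559407-154569892), the best known activating E2F factor, went the other way. It stood at 21.8, 19.7 and 22.4 CPM in corpus vehicle and 9.60, 12.4 and 19.8 CPM in inhibited organoids, and at 24.7, 29.5 and 22.9 against 14.6, 18.4 and 16.2 CPM in antrum. The antral groups were apart, and in corpus 1 inhibited library passed the lowest vehicle library by less than 1 CPM. The change was -0.65 ± 0.21 in antrum (adjusted p = 0.0404) and -0.61 ± 0.21 in corpus (adjusted p = 0.05005, just over the threshold, and 0.011 with blocks). The antral call was lost under 16 of 30 other settings. The ratio of E2f2 to E2f1 counts was higher after inhibition within every line, going from 0.109, 0.112 and 0.0863 to 0.451, 0.384 and 0.376 in corpus, and from 0.136, 0.158 and 0.131 to 0.411, 0.577 and 0.454 in antrum. E2f1 thus still had the higher count in all 12 libraries. E2f8 (chr7:48866429-48881596), a repressing E2F factor, stood at 28.0, 28.3 and 38.1 CPM in corpus vehicle and 12.8, 18.4 and 44.5 CPM in inhibited organoids, and at 34.4, 42.8 and 35.5 against 26.6, 44.3 and 31.3 CPM in antrum. Its groups overlapped in both regions and it was not called, at -0.23 ± 0.26 in the mean (adjusted p = 0.497, and 0.148 with blocks). Ccne1 (chr7:38097984-38107534), a cyclin that drives entry into S phase, stood at 16.6, 13.5 and 14.8 CPM in corpus vehicle, 8.74, 9.42 and 17.0 CPM in corpus inhibited, 18.3, 24.5 and 16.2 CPM in antral vehicle and 13.4, 17.6 and 13.6 CPM in antral inhibited organoids. It overlapped in both regions, and its change in the mean, -0.38 ± 0.17, had an adjusted p of 0.0918, and 0.0278 with blocks.

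Within lines the ratios differed in size in corpus and were alike in antrum. The median log2 ratio of the 52 members, inhibited to vehicle, was -1.15 in corpus line 8025, -0.77 in 8026 and -0.17 in 8028, and -0.65, -0.48 and -0.48 in the 3 antral lines. In corpus line 8028 the inhibited library was lower for 41 members and not lower for 11, which were Orc1, Mcm10, Gins2, Pola2, Prim2, Fen1, Rrm2, Tk1, E2f2, E2f8 and Ccne1. In the other 5 lines 50 or 51 members were lower. Of all tested genes 51.2% were lower in corpus line 8028, the smallest share of any line, and 55.5% in corpus line 8025, the largest. Members lower in all 3 lines numbered 41 in corpus, where 35% of all tested genes were, and 50 in antrum, where 36.8% were. In all 6 lines 41 members were lower, and the share of all genes lower in all 6 was not counted. In 6 members the corpus groups did not overlap, lower after inhibition, against 21.1% of all genes, and in 36 the antral groups did not, against 24.6%.

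The members also varied together between libraries of a group. The inhibited corpus library of line 8028 was the highest of its group for all 52 genes, and that of line 8025 the lowest for 50. The vehicle corpus library of line 8028 was the highest for 49, and in antrum line 8026 was the highest for 51 in vehicle and for all 52 in inhibited organoids. The summed level of the 52 genes was 2578, 2638 and 3355 CPM in corpus vehicle and 1169, 1516 and 2992 CPM in corpus inhibited organoids. In antrum the sums were 3200.1, 3887 and 3019.8 CPM in vehicle and 2035, 2709 and 2149 CPM in inhibited organoids. The antral sums of the 2 treatments did not overlap and the corpus sums did. The median SD of the members among the inhibited corpus libraries was 0.70 on the log2 scale, against 0.19 to 0.22 in the other 3 groups and 0.21 for all tested genes in the same group. In those 3 inhibited corpus libraries Axin2 followed the same order of lines, and what links the 2 was not tested.

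**Figure D3:**
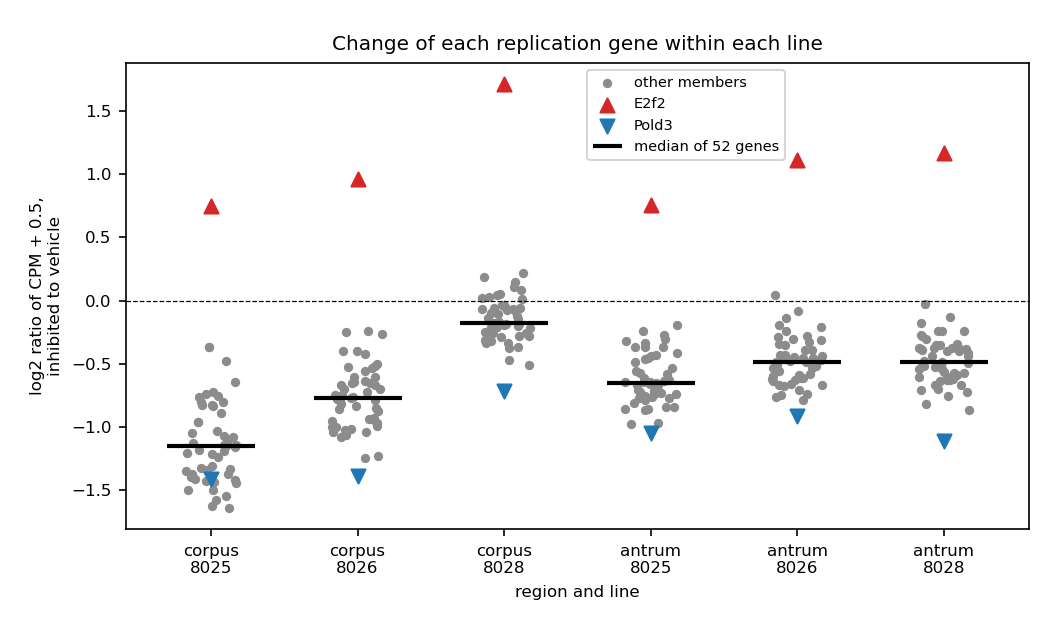
Log2 ratio of CPM + 0.5, inhibited to vehicle, of each of the 52 genes in each line, with the median as a bar. The medians lie at -1.15, -0.77 and -0.17 in the corpus lines and between -0.65 and -0.48 in the antral lines, with E2f2 the highest point in every line and Pold3 the lowest in 5.

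The fitted level of every member was higher in the antral than in the corpus groups, and none of these differences was called with all libraries. In vehicle organoids the difference, antrum minus corpus, was positive for 52 of 52 members, with a median of 0.24 on the log2 scale, against -0.01 for all genes. None was called, where 0.198% of all genes were, and 1 stood at an unadjusted p under 0.05. The vehicle groups did not overlap for Gins2, Pold3, Fen1, E2f1 and E2f2, 5 of 52, against 22.5% of all genes in either direction. In inhibited organoids it was again positive for all 52, with a median of 0.28, against 0.01 for all genes, none called where 0.0619% of all genes were, and none at an unadjusted p under 0.05. The vehicle difference ran from 0.04 ± 0.15 for Rpa3 to 0.77 ± 0.28 for E2f2 (adjusted p = 0.235). Without corpus line 8028, which leaves 2 corpus lines, 45 members were called higher in antrum after inhibition, where 9.13% of all genes were, with a median difference of 0.80, and 1 in vehicle, where 2.27% were. That 1 was Pold3. Since the inhibited library of that line was the highest of its group for all 52 members, leaving it out lowers the corpus level of each, and these counts are no test of a regional difference. Lines of both regions share their numbers, and whether a number marks the same mouse is not given in the sources used here. The lines were treated as separate in the mean of both regions, and the comparison of regions was not blocked.

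The response itself was not called different between the regions for any member. The difference of the 2 changes, antrum minus corpus, had a median of 0.04 and ran from -0.23 ± 0.38 for E2f2 to 0.38 ± 0.35 for Rfc3, where 0.00619% of all genes were called and no member stood at an unadjusted p under 0.05. The median SE of that difference was 0.40, so a difference of the size of the changes themselves would not have been detectable for many members. With the lines as blocks and without corpus line 8028, 4 members were called, Mcm4 at 0.57 ± 0.11, Mcm6 at 0.58 ± 0.11, Rfc3 at 0.78 ± 0.12 and Timeless at 0.66 ± 0.13, where 1.08% of all genes were called. These 4 calls are likewise no test of a regional difference, since the corpus ratios closest to 0 were those of line 8028.

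**Figure D4:**
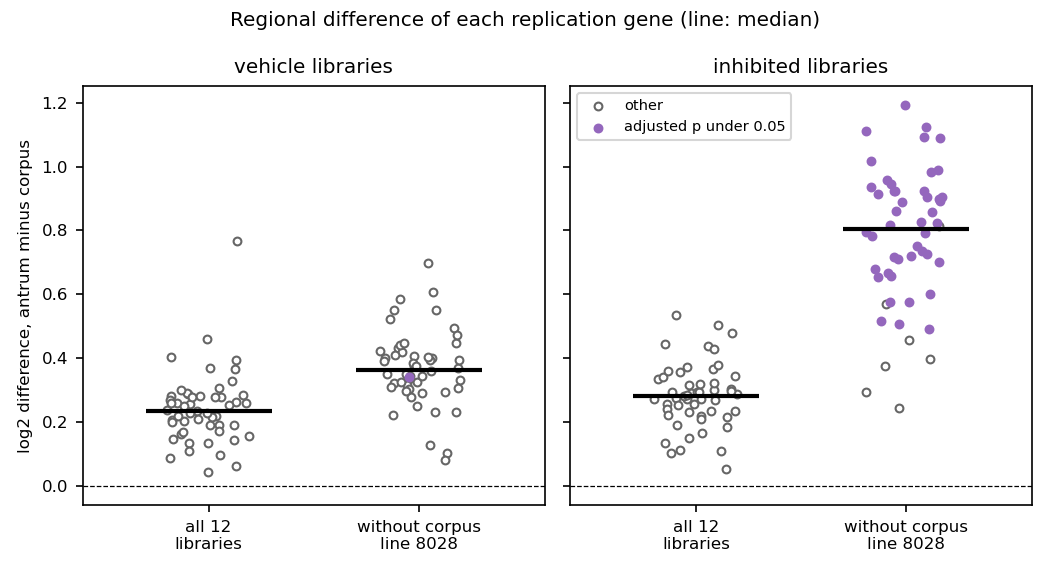
Difference in log2 level, antrum minus corpus, of each of the 52 genes in vehicle and in inhibited libraries, from the fit of all 12 libraries and from the fit without corpus line 8028, with the median as a bar and called genes filled. All points lie above 0, none is called with all libraries, and without that line 1 is called in vehicle and 45 in inhibited organoids.

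Per kilobase of transcript, which allows levels to be compared between genes, Pcna was the most abundant member. It stood at 108 CPM per kilobase in corpus vehicle and 79.7 in inhibited organoids, and at 129.5 and 96.3 in antrum. By the mean over all groups Tk1, Mcm7 and Mcm6 followed, although in the vehicle groups Mcm7 and Mcm6 stood above Tk1. In corpus vehicle Tk1 stood at 53.7, Mcm7 at 59.3 and Mcm6 at 56.3, with ranges over the 3 libraries that overlapped. The Mcm ring subunits are needed in equal number, and in corpus vehicle they ran from 28.9 for Mcm4 to 59.3 for Mcm7. E2f2 was the least abundant, at 0.457 CPM per kilobase in corpus vehicle and 1.69 in inhibited antral organoids, its highest group. Lengths are those of annotated transcripts, and the transcript used by these cells was not measured.

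Genes next to the set in the same pathways also had negative medians. Their counts of lower calls are to be read against the shares of all genes above, 15.4% in corpus, 13.4% in antrum and 23.6% in the mean, or 23.7%, 20.2% and 29.9% with the lines as blocks. Of 32 other replication factors, 6 (18.8%) were called lower in corpus, 2 (6.25%) in antrum and 19 (59.4%) in the mean of both, and 21, 20 and 27 with blocks, with medians of -0.39 in corpus and -0.35 in antrum. Those with the lowest adjusted p in both regions were Ctc1, of the telomere replication complex, at -0.88 ± 0.09 in corpus (adjusted p = 3.87e-05), and Rfc1, the large clamp loader subunit, at -0.46 ± 0.10 (adjusted p = 0.0044). The smallest polymerase delta subunit, Pold4, was the 1 gene of this list called higher, at 0.80 ± 0.26 in antrum (adjusted p = 0.036), and is named because it was the exception. Of 23 other genes of nucleotide supply, 6 (26.1%) were called lower in each region and 14 (60.9%) in the mean, and with blocks 16, 16 and 17. The 1 gene of this list called higher was Adss, of AMP synthesis, at 0.22 ± 0.05 in corpus (adjusted p = 0.0102) and 0.38 ± 0.05 in antrum (adjusted p = 0.000307), named as the exception. Paics, of purine synthesis, fell by 0.80 ± 0.06 on the log2 scale in corpus (adjusted p = 3.98e-06) and by 0.71 ± 0.06 in antrum (adjusted p = 6.62e-06). Ctps, which makes CTP, fell by 0.83 ± 0.12 in corpus (adjusted p = 0.000277), and Ppat, which starts purine synthesis, by 0.80 ± 0.11 in antrum (adjusted p = 0.000201).

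Of 22 fork checkpoint and repair genes, 11 (50%) were called lower in corpus, 8 (36.4%) in antrum and 19 (86.4%) in the mean, and none higher, and 20, 18 and 21 were with blocks, with medians of -0.70 and -0.59. Msh6, of mismatch repair, stood at 79.1, 84.8 and 86.2 CPM in corpus vehicle and 48.2, 54.6 and 66.4 CPM in inhibited organoids, and at 82.4, 86.8 and 78.9 against 52.1, 56.6 and 54.5 CPM in antrum. Its groups did not overlap in either region, and its change was -0.56 ± 0.10 in corpus (adjusted p = 0.00133) and -0.60 ± 0.10 in antrum (adjusted p = 0.000884). The checkpoint kinase Atr changed by -0.52 ± 0.10 in corpus (adjusted p = 0.00252), and Hus1, of the checkpoint clamp, by -0.76 ± 0.18 in antrum (adjusted p = 0.00727).

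Of 17 other genes of the E2F, RB and S phase entry list, 3 were called lower and 1 higher in corpus, 2 lower and 1 higher in antrum, and 9 lower and 2 higher in the mean. With blocks 10, 7 and 12 were called lower and 1, 2 and 2 higher. Tfdp2, a partner of E2F factors, changed by -0.49 ± 0.08 in corpus (adjusted p = 0.000863) and -0.39 ± 0.08 in antrum (adjusted p = 0.00411). Cdc25a, the phosphatase that activates Cdk2, rose in corpus, from 55.5, 50.0 and 55.7 CPM in vehicle to 59.8, 69.5 and 78.0 CPM in inhibited organoids, with a log2 change of 0.36 ± 0.09 (adjusted p = 0.0112). It was also the 1 gene of the list called higher in antrum, at 0.31 ± 0.09 (adjusted p = 0.0245). Cks1b, a small partner of the cyclin-dependent kinases, changed by -0.62 ± 0.17 in antrum (adjusted p = 0.0161). Of 12 chromatin assembly partners, 5 were called lower in corpus, 3 in antrum and 9 in the mean, and 9, 7 and 10 with blocks, among them the histone chaperones Rbbp4 at -0.49 ± 0.10 in corpus (adjusted p = 0.0042) and Asf1a at -0.53 ± 0.11 in antrum (adjusted p = 0.00403).

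Genes of mitosis and G2/M, the later phase of the same cycle, had negative medians as well. Of 30, 6 (20%) were called lower in corpus, 1 (3.33%) in antrum and 17 (56.7%) in the mean, and none higher. The antral share was under the 13.4% of all genes. With blocks 23, 15 and 27 were called lower. The median was -0.59 in corpus and -0.48 in antrum. Cenpf, of the kinetochore, was called in both regions, at -0.82 ± 0.19 in corpus (adjusted p = 0.00716) and -0.66 ± 0.19 in antrum (adjusted p = 0.0226). Nuf2, which ties the kinetochore to microtubules, was called in corpus at -1.03 ± 0.31 (adjusted p = 0.0271) and had -0.75 ± 0.31 in antrum (adjusted p = 0.0918). Without corpus line 8028 the mitotic list had 29 of 30 genes called lower in corpus and 19 in antrum, and the fork checkpoint list 20 and 19 of 22. In that fit 19% of all genes were called lower in corpus and 17.8% in antrum. The line was left out because it stood apart for the replication genes, so these counts are no test of the fall.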

How the data were processed

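Polyadenylated RNA of 12 organoid libraries was measured. The deposited table holds estimated counts per gene from RSEM 1.3.3; cutadapt 2.3, FastQC 0.11.8, STAR 2.7.8a and the build GRCm38 are named as well, per the submitters' processing notes. All values are whole numbers as deposited. Neither the annotation release nor the strand setting is given there. 5 transgene rows with 2 counts in all were left out.

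The test was edgeR's quasi-likelihood test (version 4.0.16 in R 4.3.3; robust, two-sided, TMM scaling, filterByExpr by group) in 1 fit of all 12 libraries with 4 group means and 8 residual degrees of freedom. P-values were adjusted by Benjamini-Hochberg over the 16152 genes that passed, at 0.05. CPM divide by the TMM-scaled total, and ratios within a line use CPM + 0.5. The check of pairing correlated the deviations of 2 libraries from their group means. The r of the 6 pairs of the same region and line ran from 0.157 to 0.544, and across regions from -0.197 to 0.277. The antral pairs, up to 0.259, lay within the range across regions. Since each line gave both libraries, the line within its region was the block (4 residual degrees of freedom). Each result was recomputed with size factors by RLE, by the upper quartile or by total counts, with TMM without 4 rRNA-like rows, under other count filters, in DESeq2 1.42.0 and limma-voom 3.58.1, with the block, and without single libraries or lines. The steps were also run on simulated counts that had no line effects and changes in the inhibited corpus group only. That run does not check how the block handles differences between lines. 1 immune marker is not reported here. The members, gene lists and alternatives were chosen with earlier results of these data known. Named genes were, in each role, the 3 with the lowest adjusted p in the mean of both regions, the highest mean CPM and the largest change, and in each other list the 2 with the lowest adjusted p. With 3 lines a group, p-values measure the spread between these lines.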

Additional observations from a re-analysis of the deposited data

How the results depend on the processing

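The number of members called lower moved with the treatment of lines and tools. Brackets after these counts give the share of all genes called lower in the same fit. In corpus, where 6 were called (15.4%), the count was 11 with total counts only (23.1%) and 2 without a count filter (7.15%). It was 14 in DESeq2 (16.2%), 18 in limma-voom (16.8%), 40 with the replicate block (23.7%) and 2 in the fit of only its 6 libraries (10.4%). It was 2, 1 and 47 without both libraries of corpus line 8025, 8026 and 8028 (8.75%, 6.98% and 19%). It was 3 without both of antral line 8025 or 8028 (11.9% and 13.4%) and 3 when vehicle lines 8025 and 8028 of the antrum were dropped (13.1%). With the block and without corpus line 8028 it was 51 (23.5%). Leaving out 1 library gave 2 to 50 (shares of 10.2% to 21.2%), the highest without the inhibited library of corpus line 8028. In antrum, where 4 were called (13.4%), the count was 7 with upper quartile scaling (17.5%), 2 without a filter (6.07%) and 9 in DESeq2 (14.3%). It was 29 with the block (20.2%) and 34 in only its 6 libraries (16.9%). Without corpus line 8025, 8026 or 8028 it was 10, 2 and 34 (13.5%, 11.1% and 17.8%). Without antral line 8025, 8026 or 8028 it was 1, 2 and 1 (6.19%, 7.15% and 7.8%), and it was 0 when those 2 antral vehicle libraries were dropped (5.29%). With the block and without corpus line 8028 it was 48 (22.2%), and leaving out 1 library gave 2 to 30 (shares of 8.65% to 17.2%). The 1 member called higher in antrum, E2f2, became 0 without antral line 8028 and without the 2 antral vehicle libraries. In the mean of both regions, where 29 were called (23.6%), the count was 9 without a filter (11.9%) and 49 with the block (29.9%). It was 8 and 51 without corpus line 8026 and 8028 (17.1% and 25.8%), and 8, 16 and 11 without antral line 8025, 8026 and 8028 (16.5%, 18.8% and 18.7%). It was 16 without the 2 antral vehicle libraries (16.8%), 51 with the block and without corpus line 8028 (29.4%), and 13 to 51 without 1 library (shares of 19.2% to 26.9%). The cause of these moves was not tested. The corpus median of -0.61 became -0.39 without corpus line 8025 and -0.93 without 8028, and ran from -1.09 to -0.31 without 1 library. The antral median of -0.55 became -0.72 without the 2 antral vehicle libraries and ran from -0.68 to -0.38 without 1 library. Between regions, 0 calls after inhibition became 45 without corpus line 8028 (9.13% of all genes called higher) and 0 to 43 without 1 library. In vehicle 0 became 1 without that line (2.27%). The 43 came without the inhibited library of corpus line 8028, where 1227 of 16528 tested genes were called higher and 656 lower. That library was the highest of its group for all 52 members, so these counts are no test of a regional difference. The 0 calls in the difference of responses became 4 with the block and without corpus line 8028 (1.08% of all genes called). E2f8 changed sign without the inhibited library of line 8025 of its region: leaving out 1 library at a time gave -0.98 to 0.015 (corpus) and -0.38 to 0.0081 (antrum). Over all single-gene results and settings, 2041 kept direction and side of the threshold, 260 passed it, 189 lost it and 2 reversed. Total-count scaling moved the corpus median of all genes to -0.19, where the members' medians stayed below it, and gave 3727 genes lower and 1338 higher in corpus, where TMM gave 2487 and 2498; upper quartile scaling gave 2825 and 2187 in antrum, where TMM gave 2158 and 2636. The same 2 antral vehicle libraries held 17.2% and 6.87% rRNA-like counts, and the rest 0.839% to 3.45%. A count of 0 would allow up to 0.0889 to 0.177 CPM, by counting error only, and no member was near it.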
